A study of Mus musculus with 8 samples.

Results

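The 1000 H3K27ac domains described here were the widest autosomal regions that carried this histone mark in pachytene spermatocytes (PS) or round spermatids (RS) of the mouse testis. Within each stage the peak intervals of both ChIP-seq replicates on chromosomes 1 to 19 were merged, and a merged region was kept when each replicate gave at least 1 interval. The 500 longest of 26333 merged regions in PS and the 500 longest of 26489 in RS were taken, 1000 of 52822 in all. The domains were thus chosen by their H3K27ac length, and every H3K27ac value below describes the data that the choice used and carries no test. The last PS domain taken and the first one left out were each 3862 bp long, a tie broken by position, and the corresponding RS lengths were 6327 and 6317 bp. The ChIP-seq was made from wild type C57BL/6 testes. RNA-seq of PS and RS came from C57BL/6 mice lacking both *Rnf8*, a ubiquitin ligase of the DNA damage response, and *Scml2*, a germline Polycomb protein, named dKO below. All mice were adult, each of the 4 groups had 2 replicates, and the series had 8 samples. Cells were isolated by sedimentation at unit gravity in albumin gradients, and the dKO cells came from small-scale preparations, each from 1 male. RNA and H3K27ac were thus measured in different genotypes, and wild type RNA was not analysed here.

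Acetylation of lysine 27 of histone H3 is placed by acetyltransferases such as CBP and marks active promoters and enhancers. In many cell types the widest stretches of this mark lie at highly transcribed genes and at genes that define the cell type. In the testis, pachytene spermatocytes transcribe long precursors of pachytene piRNAs, small RNAs that guide PIWI proteins, and the transcription factor A-MYB drives many of these precursors together with meiotic genes. Round spermatids follow after both meiotic divisions, and there CREM and RFX2 activate genes for the acrosome, the flagellum, and the protamines and transition proteins that later replace histones. Neither a list of piRNA loci nor any transcription factor binding data was used here.

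The sequences below show what lay at a break between neighbouring domains and at the starts of some genes named later. A 129-base break at chr9:67724558-67724686 separated the PS domains of ranks 4 and 6 and was mostly free of repeats. It was chosen after the domains were known. Of 17 breaks of 20 to 300 bases, 8 were soft-masked repeats over more than 50% of their length and 4 throughout, so this break, with 15.5% of repeats, does not stand for all of them. It is written on the plus strand of GRCm38 (mm10). The promoters run from 250 bases before to 50 after the start, 5′ to 3′ on the strand of the gene, and are from RefSeq for GRCm38. In the promoters, capitals mark matches on either strand to the core letters of motifs of germline and general factors. These are AACTG (MYB), TGACG and the full palindromic cAMP response element that contains it (CREM), and GTTGCC (RFX). The others are TATAAA (the TATA box), CCAAT (bound by NF-Y) and GGGCGG (bound by Sp factors). In the break only AACTG was marked, so its TATAAA stays in lower case. Most of the 17 breaks held no AACTG. *Gm10619*, a noncoding RNA gene on the minus strand at chr7:73816454-73816753, starts in the PS domain of rank 8. *Piwil1* (plus strand, chr5:128735996-128736295) encodes a PIWI protein of pachytene spermatocytes, and its RNA fell most among genes of PS-only domains. *Prm2* (minus strand, chr16:10792056-10792355) is a protamine gene in the longest RS domain. *1700041M19Rik* (minus strand, chr16:77010832-77011131) is a noncoding RNA gene of an RS-only domain.
chr9 break: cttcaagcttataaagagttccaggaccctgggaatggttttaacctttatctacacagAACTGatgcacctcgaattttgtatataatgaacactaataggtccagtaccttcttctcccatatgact
Gm10619 promoter: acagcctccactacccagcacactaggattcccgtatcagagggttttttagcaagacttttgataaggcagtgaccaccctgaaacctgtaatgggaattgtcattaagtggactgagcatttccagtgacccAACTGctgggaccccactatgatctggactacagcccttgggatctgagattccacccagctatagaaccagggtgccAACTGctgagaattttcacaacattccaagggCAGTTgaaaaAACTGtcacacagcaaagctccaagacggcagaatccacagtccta
Piwil1 promoter: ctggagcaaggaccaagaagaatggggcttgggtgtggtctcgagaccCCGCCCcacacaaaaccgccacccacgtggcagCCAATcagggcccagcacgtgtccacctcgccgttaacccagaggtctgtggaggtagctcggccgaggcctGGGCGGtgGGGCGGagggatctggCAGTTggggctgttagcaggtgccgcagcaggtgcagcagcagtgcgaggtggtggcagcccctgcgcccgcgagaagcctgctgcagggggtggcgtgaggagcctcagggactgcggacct
Prm2 promoter: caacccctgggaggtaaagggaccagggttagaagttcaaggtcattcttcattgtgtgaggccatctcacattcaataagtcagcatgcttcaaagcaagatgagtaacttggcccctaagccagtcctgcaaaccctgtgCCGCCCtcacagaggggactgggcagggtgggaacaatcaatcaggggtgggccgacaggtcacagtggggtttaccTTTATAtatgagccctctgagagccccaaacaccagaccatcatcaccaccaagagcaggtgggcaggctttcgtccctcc
1700041M19Rik promoter: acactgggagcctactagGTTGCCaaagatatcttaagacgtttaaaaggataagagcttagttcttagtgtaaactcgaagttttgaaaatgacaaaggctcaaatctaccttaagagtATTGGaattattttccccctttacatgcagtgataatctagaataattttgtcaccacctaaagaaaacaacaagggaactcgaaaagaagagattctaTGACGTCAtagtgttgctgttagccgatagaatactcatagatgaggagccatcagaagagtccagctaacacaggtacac

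The *Gm10619* promoter held 4 AACTG matches and no match to the other motifs. The *Piwil1* promoter held 1 AACTG, 1 CCAAT and 3 GGGCGG matches. The *Prm2* promoter held 1 TATAAA match close to the start and 1 GGGCGG match. The *1700041M19Rik* promoter held 1 cAMP response element palindrome, which counts for both of its 2 TGACG matches, and 1 match each to GTTGCC and CCAAT. These promoters do not stand for their groups. Of the promoters extracted for named genes, that of *Gm10619* had the most AACTG matches and only that of *1700041M19Rik* held the palindrome. Such short words are frequent. Among 31396 autosomal promoters of 25748 genes, 44.8% held AACTG, 37.3% CCAAT, 36% GGGCGG, 21% TGACG, 13.6% TATAAA and 12.2% GTTGCC, whereas the palindrome was in 1.83%. A match is a description of the letters and does not show a bound site.

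The ChIP-seq libraries differed in the number and extent of their autosomal peaks. PS replicates 1 and 2 had 38519 and 46177 peaks covering 31.5 and 34.8 Mb. RS replicates 1 and 2 had 72928 and 44726 peaks covering 58.8 and 32.8 Mb, so RS replicate 1 stood apart from the other 3 samples. Read totals of the ChIP samples are not given, so their depth is unknown. Fold enrichment was the fragment pileup at a summit relative to 1 background constant per sample, between 0.723 and 1.46 fragments, and no input sample entered it. The RNA samples had 9655405 to 12289694 reads on genes. *Rnf8* had 93 and 110 reads in dKO PS and 61 and 50 in dKO RS, and *Scml2* had 40 and 92 in PS and 44 and 98 in RS. These totals do not check the deletions, since reads outside the deleted parts are counted too.

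The RS domains were longer than the PS domains at nearly every rank. The median length was 4.52 kb in PS, with a range of 3.862 to 29.612 kb, and 7.57 kb in RS, with a range of 6.327 to 21.519 kb. The median of all merged regions was 1.06 kb in PS and 1.38 kb in RS. The domains held 7.56% of all merged bases in PS (2.59 Mb) and 8.75% in RS (4.11 Mb). The size of this difference depended on RS replicate 1. With 1 replicate per stage, the medians were 3.96 kb in PS and 7.47 kb in RS in the first replicates, and 4.11 kb and 4.89 kb in the second. The 500 longest intervals of replicate 1 and of replicate 2, ranked separately, overlapped for 360 and 361 of 500 in PS, whereas only 285 and 291 of 500 did so in RS.

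**Figure D1:**
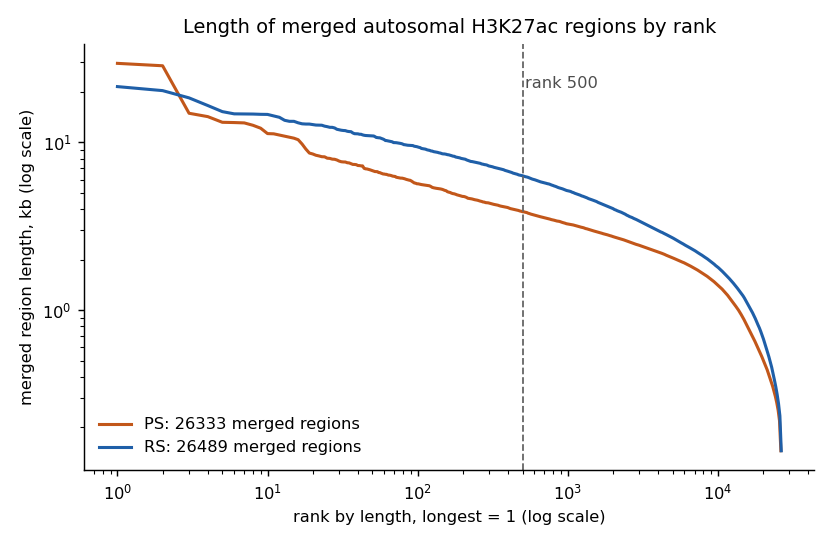
Length in kb (log scale) of every merged autosomal H3K27ac region of PS (orange) and RS (blue) against its rank by length (log scale), with the dashed line at rank 500. The first 2 PS domains, 29.612 and 28.645 kb long, lie above every RS domain, and from rank 3 on the RS curve lies above the PS curve.

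The longest PS domains were mostly away from protein-coding genes. The domains of ranks 1 and 2 were neighbours on chromosome 17 and formed a locus of 58.46 kb without a gene of the deposited table. GENCODE places the noncoding genes *Gm49793* and *Gm10505* and the microRNA genes *Mir7214* and *Mir7216* there. Peaks covered 98.2% of this locus in PS replicate 1 and 98.9% in PS replicate 2, as 6 and 5 intervals. In RS replicates 1 and 2 they covered 83.1% and 44.0%, as 38 and 37 intervals. The highest fold enrichment was 45.7 and 46.0 in PS and 23.2 and 19.2 in RS. The locus was therefore marked in both stages, as a nearly unbroken stretch in PS and as many separate intervals in RS.

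Similar pairs followed further down the list. The PS domains of ranks 4 and 6, chr9:67710308-67724557 and chr9:67724687-67737822, measured 14.249 and 13.135 kb, and GENCODE has *Mir7241* and *Mir7242* in the second. The domain of *Gm10619* (chr7:73812104-73824754, 12.65 kb) also held the start of the divergent noncoding gene *Gm21269*. Its highest fold enrichment was 54.3 and 64.1 in PS and 21.6 and 15.7 in RS. The domain of rank 3 (chr15:74633152-74648075, 14.923 kb) held the start of *Mroh4*, a gene of the HEAT-repeat family, with 55.6 and 65.8 in PS and 19.1 and 18.6 in RS. Neighbouring domains lay under 1 kb apart in 19 pairs in PS and in 5 pairs in RS. Of the 20 longest domains, 6 in PS and 13 in RS held a GENCODE protein-coding start, 9 and 10 a long noncoding start, and 6 and 2 overlapped a microRNA gene. Over all 500 domains the protein-coding shares were 71.8% and 65.0%, so the order of the stages was the opposite of that among the longest. MicroRNA genes overlapped 27 PS domains (5.4%) and 22 RS domains (4.4%), against 0.714% and 0.721% of all merged regions, which are shorter.

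The longest RS domain was the protamine cluster, chr16:10780210-10801729, 21.519 kb long. It holds *Prm1*, *Prm2*, *Prm3* and *Tnp2*, which encode protamines, a protamine-like protein and a transition protein, and *Socs1*, an inhibitor of cytokine signalling. Peaks covered 71.5% of it in PS replicate 1 and 71.3% in PS replicate 2, in 7 and 10 intervals. In RS replicate 1 a single interval covered 99.3%, and in RS replicate 2 a total of 7 intervals covered 89.1%. The highest fold enrichment was 27.2 and 35.1 in PS and 36.6 and 31.3 in RS, so the stages overlapped in height. The PS domain of rank 11, 11.252 kb long, lay inside this cluster and did not reach the start of *Prm1*. The next RS domains were at *1700029I15Rik*, *Gyltl1b* and *Pex16* on chromosome 2 (20.364 kb) and at the gene-dense stretch of *Cyb561d2*, *Nprl2*, *Zmynd10* and *Rassf1* on chromosome 9 (18.433 kb).

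**Figure D2:**
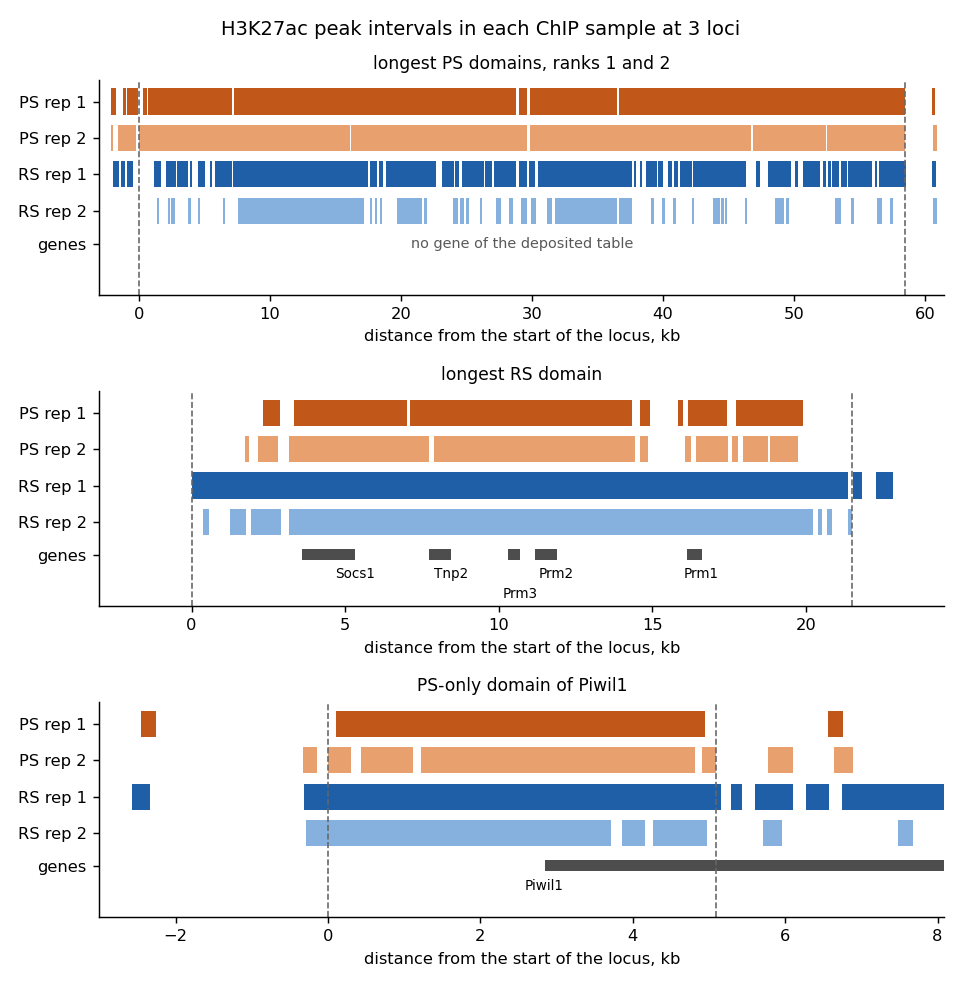
Peak intervals of the 4 ChIP samples (bars, 1 row per sample) along the longest PS domains, the longest RS domain and the PS-only domain of Piwil1, with distance in kb from the start of each locus, dashed lines at its ends and genes as grey bars. At the first locus the PS rows are nearly unbroken and the RS rows have 38 and 37 intervals, at the second RS replicate 1 is 1 interval, and at the third all 4 samples cover most of the domain.

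Fewer than 1 in 2 domains were among the 500 widest of both stages, and nearly all others had a shorter region in the other stage. Of the PS domains, 225 (45.0%, 95% Wilson interval 40.7 to 49.4) overlapped an RS domain, 268 (53.6%) overlapped a shorter RS region, and 7 (1.4%) overlapped no merged RS region. Of the RS domains, 218 (43.6%, 39.3 to 48.0) overlapped a PS domain, 280 a shorter PS region, and 2 no merged PS region. "PS-only" and "RS-only" below mean that a domain of 1 stage overlapped none of the 500 domains of the other, which is a statement on rank and not on absence. The distinction matters more in PS. The 268 PS domains whose RS region ranked lower had a median of 4.34 kb, and the longest RS region at each had a median of 4.71 kb, so these regions were no shorter in RS in bases. The 280 RS domains of this kind had a median of 7.38 kb, against 2.80 kb for the longest PS region at each. The PS counterpart of an RS domain was often broken up: it consisted of several regions at 380 RS domains, whereas the RS counterpart did so at 64 PS domains.

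Coverage and height gave different orders of the stages. Over the PS domains, peaks covered 93.5% and 95.9% of the bases in the PS replicates and 93.6% and 82.3% in the RS replicates. Over the RS domains they covered 59.8% and 61.7% in PS and 99.6% and 82.6% in RS. Both own replicates covered more bases than either replicate of the other stage at 443 RS domains but at 98 PS domains. The highest fold enrichment in a domain had medians of 27.6 and 30.1 in PS and 25.2 and 20.6 in RS over the PS domains. Over the RS domains the medians were 20.6 and 21.9 in PS and 27.1 and 22.1 in RS, so RS replicate 2 was close to the PS samples there. Both own replicates were higher than both others at 273 PS and 256 RS domains. The own stage was thus the higher one in similar numbers of PS and RS domains, whereas it was the more extended one far more often in RS.

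**Figure D3:**
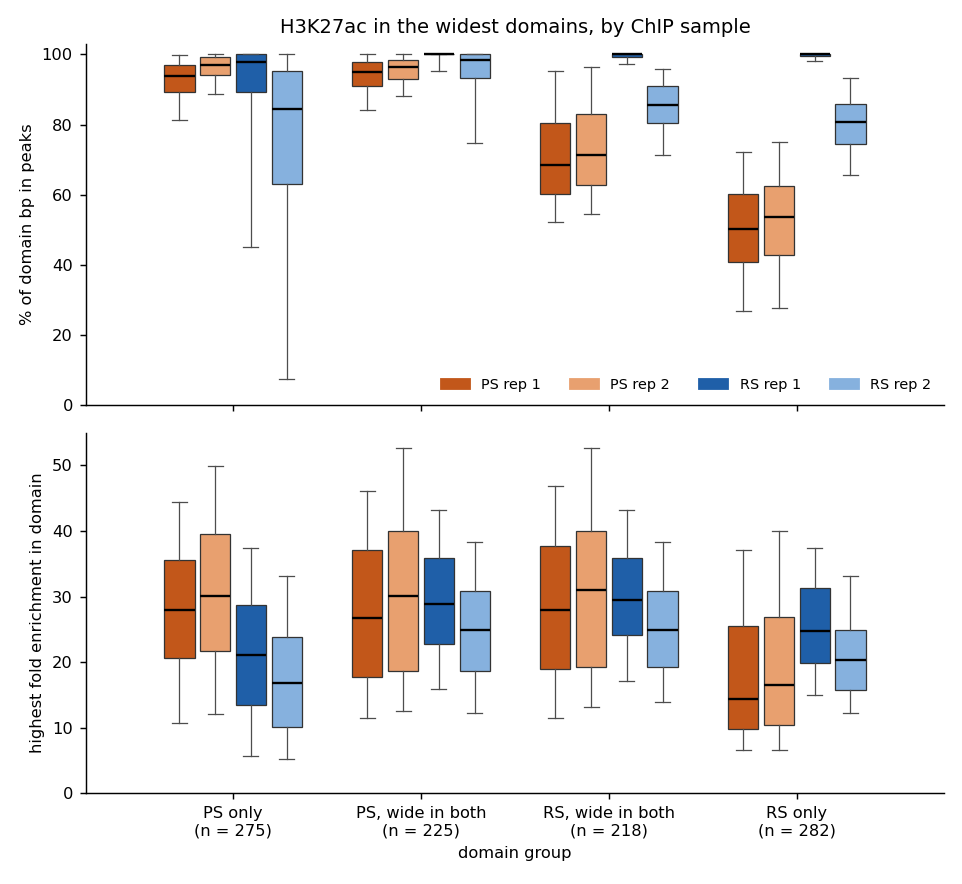
Percent of the bases of each domain inside peaks (top) and the highest fold enrichment in it (bottom) for each ChIP sample, by domain group; boxes are quartiles with the median line and whiskers reach the 5th and 95th percentiles of domains. In RS-only domains the PS boxes lie well below the RS boxes for coverage, whereas in PS-only domains the stages overlap in coverage and the PS medians are higher for enrichment.

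Since length chose the domains of each stage, they were also chosen in 1 replicate and read in the other. Of 303 PS-only domains chosen in the first replicates, 215 had more covered bases in PS than in RS in the second replicates and 74 had fewer, with medians of 3640 and 3357 bp. Of 280 chosen in the second replicates, 104 had more in PS and 168 more in RS in the first replicates, with medians of 3671 and 3729.5 bp. The direction for PS-only domains thus differed between these arrangements, which differ both in the replicate that chose the domains and in the replicate read. Of the RS-only domains, 299 of 311 had more bases in RS in the second replicates, and 284 of 284 did so in the first. RS replicate 1, which had the most peaks of all samples, enters the choice in one arrangement and the reading in the other.

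The 7 PS domains with no merged RS region were mostly away from gene starts. Of these domains 6 held none, and 2 of those lay on chromosome 7 next to the domain of *Gm10619*, at chr7:73784713-73790975 (6.262 kb) and chr7:73791924-73796471 (4.547 kb). On chromosome 6, 2 others, chr6:127779523-127784847 (5.324 kb) and chr6:127828280-127833269 (4.989 kb), flanked further PS domains. The most enriched was chr17:31249270-31253619 (4.349 kb), for which the deposited nearest gene is *Rsph1*, encoding a protein of the ciliary radial spoke, with 30.9 and 33.4 in PS and 4.48 in RS replicate 1. RS replicate 2 had no peak there. The seventh held the start of *Gse1* (chr8:120534956-120539013, 4.057 kb), with 25.1 and 28.0 in PS, 4.88 in RS replicate 1 and no peak in RS replicate 2. The dKO RNA of *Gse1*, named for its domain after its values were seen, was 5.25 and 4.79 RPKM in PS and 1.66 and 1.81 in RS (log2 fold change -1.50 ± 0.17). Across the 7 domains RS replicate 1 had weak peaks with a fold enrichment of 3.25 to 5.29 that covered 16.6% of the bases. In RS replicate 2 peaks covered 0.796%, and its highest fold enrichment was 3.48 with a median of 0, which stands for no peak. The 2 RS domains without a merged PS region were chr3:3021207-3033621 (12.414 kb, starting 21.2 kb from the first sequenced base of the chromosome), with 4.53 and 4.38 in PS and 12.6 and 11 in RS, and chr1:172481160-172487703 at *Igsf9* (6.543 kb), with 4.94 and 4.93 in PS and 11 and 8.71 in RS.

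A wide domain usually held several summits and a promoter. The median number of summits per domain was 11 in each PS replicate, and 20 and 17 in the RS replicates. Per kb of domain there were 2.37 and 2.34 summits in PS and 2.68 and 2.17 in RS, so summit density was similar and the number followed length. A peak that the deposited annotation calls promoter lay in 391 PS domains (78.2%, 74.4 to 81.6), against 44.4% of all merged PS regions. In RS it lay in 366 domains (73.2%, 69.2 to 76.9), against 39.6%. Longer regions have more chance to include a promoter, and this was not corrected for. The share was 65.4% (59.6 to 70.7) in RS domains whose PS region was shorter and 83.5% in RS domains wide in both stages. Of the domains without a region in the other stage, 1 of 7 in PS and 1 of 2 in RS held such a peak. Strongest summits were intronic in 1.6% of PS and 4.8% of RS domains, against 18.5% and 21.1% of all merged regions. A gene start lay in 391 PS domains, which held 517 genes, and in 361 RS domains, which held 514. At least 2 genes started in 107 PS and 121 RS domains, and at least 3 in 13 and 26.

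Gene starts were rarer in the longest PS domains. They lay in 65 of the first 100 and in 88 of the last 100, and the RS counts of 71 and 77 differed less. The first 100 were also most often wide in both stages, 76 in PS and 71 in RS, against 25 and 37 of the last 100.

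Base composition at the strongest summit differed in median between PS-only and RS-only domains. In 300-base windows the median CpG content was 7.0 per 100 bases in PS-only domains (quartiles 2.5 and 10) and 2.33 in RS-only domains (1 and 6.33), so the groups overlapped. With a promoter peak the medians were 8.0 in 212 PS-only and 4.83 in 184 RS-only domains. For all PS domains it was 5.67, against 2.33 over all merged PS regions, and for all RS domains 2.83, against 1.67. Among domains with a promoter peak the PS median was 7.0, close to the 6.67 of all merged PS regions with one, whereas the RS median was 5.00, below the 7.0 of all merged RS regions with one. GC content had medians of 61.0% in PS and 57.3% in RS, against 53.7% and 52.7% over all merged regions. GGGCGG was in 40.6% of PS and 31.0% of RS windows (26.6% and 23.4% of all), and AACTG in 36.8% and 33.6% (47.3% and 43.7% of all). The AACTG share was thus lower in the domains than in merged regions generally, and in PS domains without a promoter peak it was 49.5%, against 56.8%. The promoter table matched 216 of 272 genes of PS-only domains (79.4%), 209 of 254 of RS-only domains and 210 of 261 of domains wide in both. Fewer than 80% matched in the first group, so a comparison of promoter motifs between the groups is void and is not given.

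The RNA was not used in choosing the domains, and it was compared between dKO RS and dKO PS for all genes at once with edgeR's quasi-likelihood test. A gene was called when the Benjamini-Hochberg adjusted p over all 14647 tested genes was under 0.05 and the change at least 1.5-fold. Of these genes, 30.4% were called higher and 27.6% lower in RS, 58% in either direction. Among the 14167 tested genes on autosomes, where all domains lie, 29.3% were higher and 28.5% lower. Of 256 tested genes starting in PS-only domains, 50 (19.5%) were higher and 99 (38.7%) lower in RS, with a median log2 fold change of -0.31. Of 249 tested genes starting in RS-only domains, 130 (52.2%) were higher and 43 (17.3%) lower, with a median of 0.72. Of 247 in domains wide in both stages, 107 (43.3%) were higher and 60 (24.3%) lower, with a median of 0.29. The RNA of genes in RS-only domains was thus above the background share of rises, and that of PS-only domains above the background share of falls.

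Genes that started in other, shorter merged regions give a second reading of that background. Of 10274 tested genes of this kind 23.7% were higher and 32.3% lower, with a median of -0.19, which is near the values of PS-only domains. Of 3141 tested genes that started in no merged region 45.4% were higher and 16.6% lower, with a median of 0.78, which is near those of RS-only domains. The direction at PS-only domains therefore differed little from that of most acetylated genes. Only 3141 of the 10625 genes outside merged regions were tested. Over all 10625 the median RPKM was 0 in both PS samples and 0.054 and 0.055 in RS. A gene near 0 can pass the count filter through a single stage. The share of rises outside merged regions is therefore no background for RS-only domains. In levels per transcript length the groups differed more plainly. The median RPKM of genes in PS-only domains was 21.6 and 20.5 in PS and 15.4 and 17.5 in RS. It was 16.9 and 18.6 in PS and 33.4 and 31.3 in RS for RS-only domains, and 22.9, 25, 31.6 and 32.4 in the same order for domains wide in both. Genes of other merged regions had medians of 8.04 and 7.82 in PS and 6.57 and 6.77 in RS, so genes of wide domains had the higher levels in both stages.

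**Figure D4:**
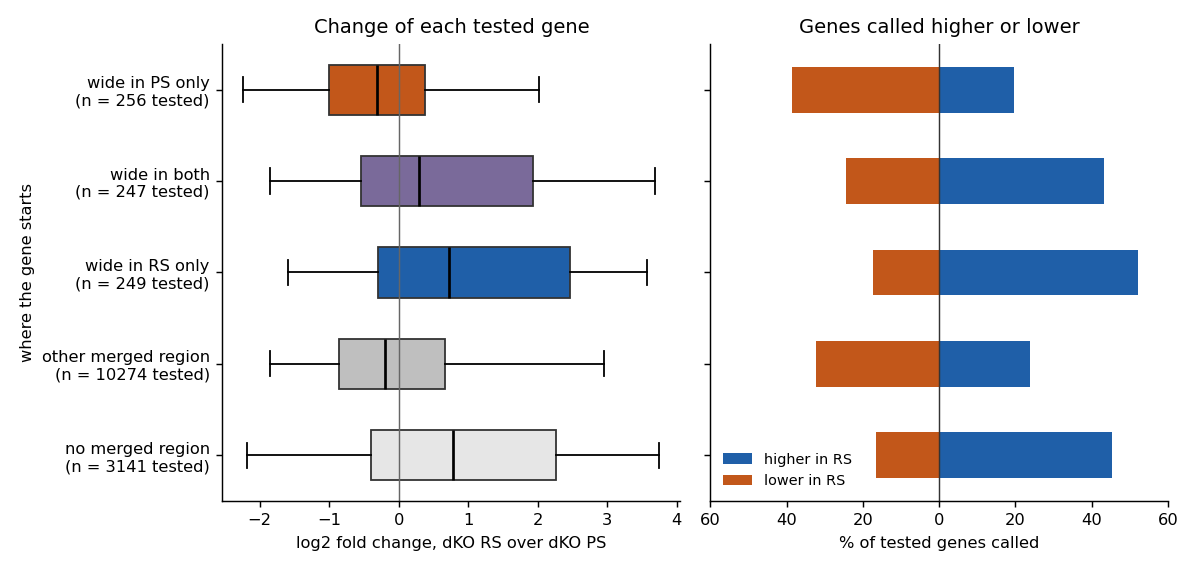
Left, log2 fold change of dKO RS over dKO PS for every tested gene by where it starts, as boxes of quartiles with the median and whiskers at the 5th and 95th percentiles; right, percent of tested genes called higher (blue) or lower (orange) in RS. Genes of RS-only domains have a median of 0.72 and 52.2% higher, and genes of PS-only domains a median of -0.31 and 38.7% lower. The 3141 tested of 10625 genes in no merged region have a median of 0.78.

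These counts depended on how domains were drawn. With intervals up to 1000 bp apart joined before ranking, 71 of 221 tested genes of PS-only domains (32.1%) were higher and 68 (30.8%) lower, and of 320 of RS-only domains 116 (36.2%) were higher and 78 (24.4%) lower, with medians of -0.07 and 0.07. These shares lay closer to the background. Without RS replicate 1 of the ChIP-seq they lay further from it: of 222 tested genes of PS-only domains 27 (12.2%) were higher and 100 (45.0%) lower, and of 188 of RS-only domains 129 (68.6%) were higher and 15 (7.98%) lower. In bulk RNA, fewer cells of a type and less RNA per cell cannot be told apart, which touches every change below. Other cells also differed between the dKO samples: all 10 Leydig cell markers were lower in RS, with a summed RPKM of 778.9 and 575.6 in PS and 75.6 and 46.7 in RS, mostly from *Insl3*. All 7 tested macrophage and blood markers were higher in RS, summed to 3.36 and 2.47 in PS and 48.3 and 42.2 in RS, mostly from *Lyz2*. The globin genes *Hba-a1* and *Hbb-b1* were listed at 0 in all 4 samples. None of these markers started in a domain, and their part in the counts was not tested. Of 10 spermatogonia markers 4 were higher and 1 lower, of 7 tested Sertoli cell markers 2 were higher and 0 lower, and of 10 peritubular and vessel markers 4 were higher and 1 lower. The only one of these in a domain was *Amh*, a Sertoli cell hormone in a PS-only domain, with too few reads to test.

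Among genes of PS-only domains, the 5 largest falls were at *Piwil1*, *Cks2*, *Pcbp1*, *Sprtn* and *Cdc42ep3*. *Piwil1*, which encodes the PIWI protein that binds pachytene piRNAs, had 286 and 326 RPKM in PS and 9.91 and 17.6 in RS. Its log2 fold change was -4.45 ± 0.26 (SE, n = 2 per stage, edgeR adjusted p = 4.48e-06), and no RS sample came near a PS sample. The domain (chr5:128733403-128738494, 5.091 kb) was covered to 95.2% and 93.4% in PS and to 100% and 92.9% in RS, with a highest fold enrichment of 42.8 and 55.4 in PS and 21.2 and 17.4 in RS. The RS region there was 5.481 kb long, longer than the PS domain, and ranked 821. *Cks2*, a subunit of cyclin-dependent kinase complexes, had 121 and 113 RPKM in PS and 7.62 and 10.15 in RS (log2 fold change -3.68 ± 0.19). *Pcbp1*, an RNA-binding protein, *Sprtn*, a protease that repairs DNA-protein crosslinks, and *Cdc42ep3*, an effector of the GTPase Cdc42, fell by 3.25, 3.12 and 2.78 on the log2 scale. At each of these 5 genes both PS samples had a higher maximum enrichment in the domain than both RS samples. The stages did not overlap in RPKM at any of the 5.

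Other genes of PS-only domains rose by as much. *4933411K16Rik* had 39.0 and 66.3 RPKM in PS and 759 and 786 in RS, a log2 fold change of 3.91 ± 0.25 (edgeR adjusted p = 5.64e-06). *Pdzk1*, a scaffold protein with PDZ domains, had 10.23 and 13.5 in PS and 121 and 120.3 in RS (3.39 ± 0.17), and the overlapping antisense gene *4930442L01Rik* changed by 3.08 ± 0.21. Since the strand used in counting is not stated, reads of these partners cannot be told apart. *Mex3b*, an RNA-binding protein, and *Tex26*, a testis gene, rose by 3.31 and 3.01. The 4 domains of these 5 genes had fold enrichments of 8.23 to 16.4 in PS and 14.5 to 36.6 in RS, higher in both RS samples than in both PS samples at each of them. They also had longer regions in RS, from 4.498 to 5.425 kb, than in PS, from 3.892 to 4.476 kb, and were PS-only by rank alone. Maximum enrichment and RNA thus had the same direction at these 10 genes, which were taken as the extremes of RNA change.

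**Figure D5:**
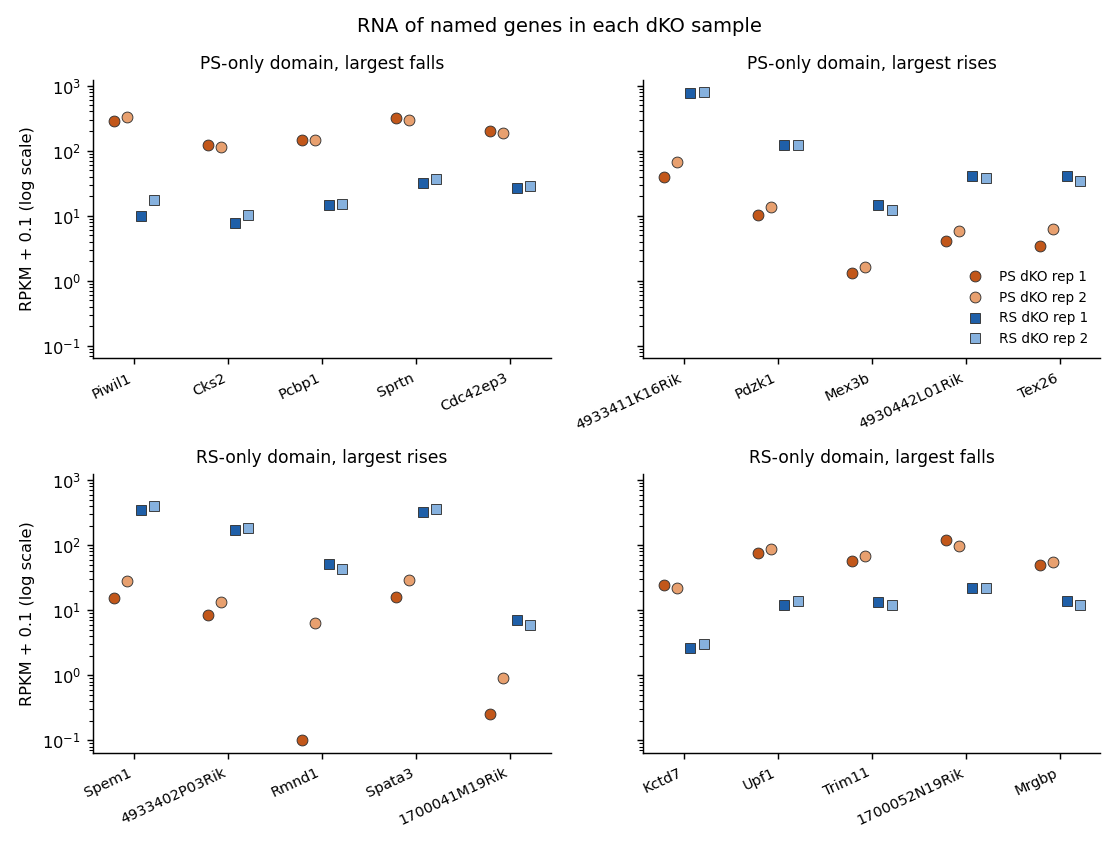
RPKM + 0.1 (log scale) of the 5 genes with the largest falls and the 5 with the largest rises in PS-only (top) and RS-only (bottom) domains, with 1 point for each dKO sample, circles for PS and squares for RS. In every gene the PS points lie entirely above or below the RS points, and Rmnd1 is at 0 in PS replicate 1.

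Among genes of RS-only domains, the 5 largest rises included *Spem1* and *Spata3*. *Spem1*, needed for removal of cytoplasm from the sperm head, and its neighbour *4933402P03Rik* started in the same domain of 11.587 kb on chromosome 11. *Spem1* had 15.2 and 27.7 RPKM in PS and 351 and 397 in RS, a log2 fold change of 4.16 ± 0.27 (edgeR adjusted p = 5.99e-06), and *4933402P03Rik* changed by 4.06 ± 0.22. *Spata3*, a testis gene on chromosome 1, had 16.03 and 29.1 in PS and 321 and 355 in RS (3.93 ± 0.27). *1700041M19Rik*, whose promoter is shown above, had few reads, with 0.155 and 0.797 RPKM in PS and 7.09 and 5.87 in RS (3.79 ± 0.50). *Rmnd1*, a mitochondrial protein, had no read in PS replicate 1, 129 reads in PS replicate 2 and 1349 and 930 in RS (3.95 ± 0.87, adjusted p = 0.0041), so its fold rests on 1 PS sample. It starts in the same domain as *1700052N19Rik*, which was lower in RS. At *Spem1* and *Spata3* the domains had 7.67 to 12.3 in fold enrichment in PS and 20.3 to 27.7 in RS.

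Among the genes of RS-only domains that fell, the 5 largest changes included *Kctd7* and *Upf1*. *Kctd7*, an adaptor of ubiquitin ligases, had 24.1 and 22.0 RPKM in PS and 2.53 and 2.97 in RS, a log2 fold change of -3.03 ± 0.16 (edgeR adjusted p = 3.48e-06). *Upf1*, the helicase of nonsense-mediated mRNA decay, had 75.9 and 87.9 in PS and 12.1 and 13.6 in RS (-2.64 ± 0.14). *Trim11*, a ubiquitin ligase, *1700052N19Rik*, and *Mrgbp*, a subunit of the NuA4 acetyltransferase complex, fell by 2.27, 2.26 and 2.00. Their domains were longer in RS and yet had the higher maximum in PS, for example 41.6 and 41.1 in PS against 15.9 and 12.8 in RS at *Upf1*. Width and height of H3K27ac thus pointed to different stages at all 5 of these genes, and RNA had the direction of height. The exception in the same domains was *Rmnd1*, which shares its domain with *1700052N19Rik* and rose. The 5 genes were taken as extremes of RNA change, and no count over the other genes of RS-only domains is given here.

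Protamine and transition protein genes started in domains wide in both stages. All 6 members of their list in such domains (*Prm1*, *Prm2*, *Prm3*, *Tnp1*, *Tnp2* and the spermatid linker histone gene *Hils1*) were higher in RS. *Prm1* had 104 and 166 RPKM in PS and 3576 and 3640.3 in RS, with a log2 fold change of 4.77 ± 0.23. *Prm2* had 102 and 189 in PS and 3747 and 4408 in RS (4.84 ± 0.30, edgeR adjusted p = 5.08e-06). Both had reads in the dKO PS samples, and in wild type PS the cluster was covered to over 70% by peaks. For the purity of each cell fraction the paper gives only a lower limit. RNA of the spermatocytes and RNA carried over from spermatids therefore cannot be told apart in these PS values. *Socs1*, in the same domain, had 33 and 49 reads in PS and 25 and 20 in RS and was called lower (-1.02 ± 0.36, adjusted p = 0.034), a call lost with DESeq2 and when PS replicate 2 or either RS replicate of the RNA was left out. *Tnp1* lay in domains of 5.255 kb in PS and 9.971 kb in RS and had 108 and 170 RPKM in PS and 2596 and 2876 in RS (4.34 ± 0.23). The whole list of protamine, transition protein and testis histone genes had 12 tested members, of which 7 were higher and 3 lower in RS. Its members in PS-only domains were histone genes: *Hist1h2ba* was lower (-2.17 ± 0.55), *H3f3a* was not called (0.12 ± 0.16) and *Hist1h2aa* had too few reads to test. Reads of similar histone gene copies may be shared between them.

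The other genes of the 10 longest domains moved in both directions. In PS, *Mroh4* had 372 and 408 RPKM in PS and 234 and 219 in RS (log2 fold change -0.74 ± 0.12, edgeR adjusted p = 0.00070). *Neat1*, the long noncoding RNA of paraspeckles, lay in a domain wide in both stages, 13.181 kb in PS and 14.802 kb in RS, and had 6.6 and 12.4 RPKM in PS and 0.697 and 1.87 in RS (-2.88 ± 0.45). *Gm10619* had 3.35 and 2.84 in PS and 0.504 and 0.472 in RS (-2.61 ± 0.29). All 3 were lower in RS. In RS, *Rassf1*, a scaffold of the Hippo pathway, had 94.4 and 98.0 in PS and 7.99 and 12.0 in RS (-3.23 ± 0.20), and its neighbour *Zmynd10*, a dynein assembly factor, changed by -1.61 ± 0.12. *Cyb561d2* and *Nprl2* of the same domain fell by 0.86 and 0.81, the former not being called without RS replicate 1 of the RNA. At the domain of rank 2, *1700029I15Rik* changed by 2.63 ± 0.25 and *Gyltl1b*, a glycosyltransferase, by 1.8 ± 0.25, whereas *Pex16*, a peroxisome assembly factor, was not called (0.16 ± 0.16). *Tex33* had 46.4 and 66.7 RPKM in PS and 466 and 359 in RS (2.91 ± 0.21), and *Mgea5*, the enzyme that removes O-GlcNAc from proteins, changed by 1.11 ± 0.13. At chr1:88262315-88278908 *Hjurp*, *A730008H23Rik* and *6430706D22Rik* overlap, so their reads are uncertain, and only the last was called, lower by -0.99 on the log2 scale. *Slc41a3* was not called (-0.06 ± 0.16), and at rank 8 *Mea1* rose by 0.72, *Rrp36* changed by -1.58 and *Klhdc3* (0.39) was not called.

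Gene lists, chosen with earlier results of these data known, had few members in wide domains. Of 41 flagellum genes 40 were tested, and 21 were higher (52.5%) and 7 lower (17.5%) in RS, against 30.4% and 27.6% of all tested genes. Of the 8 that started in a domain, *Tcp11* and *Smcp* (wide in both) and *Odf1* and *Spata18* (RS-only) were higher, *Rsph1* (PS-only) was lower, and *Tcte1*, *Rsph6a* and *Ropn1l* were not called. *Odf1*, a protein of the outer dense fibres, had 59.4 and 81.1 RPKM in PS and 884 and 915 in RS (log2 fold change 3.72 ± 0.18). Of 29 tested acrosome and fertilization genes 12 were higher (41.4%) and 2 lower, and 3 started in RS-only domains, of which *Spaca4* was higher (2.90 ± 0.22) and *Dkkl1* (-0.29) and *Acrbp* (-0.13) were not called. Of 24 testis kinase and phosphatase genes 10 were higher (41.7%) and 5 lower, and *Tssk1* and *Tssk2*, kinases of elongating spermatids in a domain wide in both stages, were higher by 2.74 and 3.43. Of 20 glycolysis and testis metabolic genes 8 were higher (40%) and 4 lower, and in domains *Pkm* (RS-only) and *Aldoa* (PS-only) were higher by 2.33 and 1.64, while *Tpi1* (0.14) and *Ldhc* (-0.49) were not called. All 10 round spermatid markers were higher, 5 of them in domains. The differences between these shares and those of all genes were not tested.

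Lists of meiotic genes had more members lower than higher, and lists of general genes differed among themselves. Of 19 tested piRNA pathway genes 11 were lower (57.9%) and 1 higher in RS, against 27.6% and 30.4% of all tested genes. *Pld6*, a mitochondrial nuclease of piRNA biogenesis in a domain wide in both stages, had 94.9 and 98.0 RPKM in PS and 6.59 and 7.73 in RS (log2 fold change -3.72 ± 0.15), *Piwil1* was lower as given above, and *Tdrd6*, a scaffold of germ granules in an RS-only domain, was not called (-0.36 ± 0.15). Of 30 synaptonemal and recombination genes 12 were lower (40%) and 4 higher, and *Hspa2*, a meiotic chaperone in a PS-only domain, fell by 0.68, whereas *Smc1b*, the meiotic cohesin subunit in an RS-only domain, was not called (0.30 ± 0.13). Of 10 pachytene markers 7 were lower. Of 24 histone acetylation enzymes and readers 9 were lower (37.5%) and 3 higher, with *Kat2a*, an acetyltransferase, lower by -1.21 on the log2 scale in a PS-only domain and *Brd2*, a reader of acetylated histones, not called (-0.16). Of 23 heat shock and ubiquitin genes 8 were higher (34.8%) and 5 lower (21.7%), and *Usp2* (0.54) and *Ube2b* (0.01) were not called. Of 26 transcription and translation regulators 7 were higher (26.9%) and 5 lower (19.2%), and the 4 in domains, *Ybx2*, *Pabpc1*, *Rfx2* and *Eif4g3*, were not called, with values from -0.46 to -0.04. Of 71 ribosomal protein genes 18 were lower (25.4%, near the share of all genes) and 0 higher, and none of the 5 in domains (*Rpl36*, *Rpl35* and *Rpl41* in RS-only domains, *Rps2* and *Rpl27a* in PS-only domains) was called.

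*Rnf8* itself started in a PS-only domain, chr17:29613770-29617909, with a fold enrichment of 30.9 and 40.6 in PS and 18.7 and 15.7 in RS of wild type. Its remaining dKO reads were lower in RS (log2 fold change -1.03 ± 0.25, edgeR adjusted p = 0.0066). *Scml2* lies on the X chromosome and was not called (-0.02 ± 0.51).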

How the data were processed

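Peak lists of H3K27ac ChIP-seq (wild type) and gene tables of RNA-seq (dKO) were analysed for PS and RS, with 2 replicates per group as the labels give them. Per the labels' processing notes, Bowtie 1.1.1, MACS2 2.1.0.20140616, STAR 2.4.2a and the mm10 genome were used. The deposited lists give each summit's position and pileup signal, a fold enrichment ratio against 1 background constant per sample, -log10 p and q values, the region class and the nearest gene, as the authors' software wrote them. Peaks were called in each sample separately. For RNA-seq the authors split reads between RefSeq isoforms by expectation-maximization and deposited the estimated counts and the RPKM, which is scaled by length and library size. Whether counting used strand is not given in the sources used here.

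Isoforms were summed to genes and the estimated counts rounded to whole numbers. A gene belonged to a domain when a RefSeq start of the deposited table lay in it, and domains overlapped when they shared at least 1 base. RS was compared with PS by edgeR 4.0.16 in R 4.3.3 (quasi-likelihood test, TMM, at least 10 counts in at least 2 samples, 14647 of 23343 genes) at an adjusted p of 0.05 and 1.5-fold, with no block for replicate. DESeq2 1.42.0 and limma 3.58.1 were alternatives. Python 3.11.15 with pandas 2.3.3, numpy 2.4.6 and matplotlib 3.10.9 was used for the rest. Wilson intervals at 95% cover counting error only, and the dKO replicates came from separate small-scale preparations, so p-values measure the spread between these. With 2 samples against 2, an exact two-sided permutation test cannot go below 0.333, so none was run on single values. Peaks and genes lay within GRCm38 chromosome lengths. On simulated data for this comparison (14647 genes, 200 changed by a log2 fold of 2) edgeR recovered 199 with 3.86% false calls and DESeq2 195. The changed genes were drawn only from genes with higher counts, whereas 58% of all tested genes were called in the data. The simulated rates therefore do not carry over to the calls reported here.

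The domains, lists and tests were chosen with earlier results of these data known. The genes named were those starting in the 10 longest domains of each stage, the 5 called genes with the largest fold in each direction in PS-only and in RS-only domains, up to 4 members of each of 18 lists that started in a domain, longest first, and *Rnf8* and *Scml2*. Further list members in domains are named to complete the counts and were added after their values were seen. A gene that this rule names is not reported here. Alternatives covered the joining of intervals, the number of domains, overlap, peak thresholds, gene assignment, RNA tools and filters, and leaving out each replicate. The reading of domains across replicates and the count of domains kept under other choices were added after seeing the data.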

Additional observations from a re-analysis of the deposited data

How the results depend on the processing

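With intervals up to 1000 bp apart joined, median lengths were 7.38 kb in PS and 12.99 kb in RS, the overlap was 49.8% and 48%, summits per domain 14 and 25, RS domains with a promoter peak 82%, and genes called lower 78 in RS-only domains and 109 in domains wide in both, whose median log2 fold change turned to -0.012. With the 250 longest domains, PS had a length of 5.39 kb, 73.6% promoter peaks and 13 summits. PS-only domains then had 31 higher and 45 lower genes, RS-only domains 69 higher, and domains wide in both 58 and 31. With the 1000 longest, PS had 3.86 kb, an overlap of 48.6%, 80.6% promoter peaks and 9 summits, and RS had 70.9% promoter peaks. PS-only domains then had 208 lower genes, RS-only domains 212 higher and 66 lower, and domains wide in both 219 and 114. The counts rose with the number of domains taken, but the shares of tested genes changed too. In PS-only domains 33.8% of 133 were lower with the 250 longest and 42.5% of 489 with the 1000 longest. In RS-only domains 46.3% of 149 and 55.5% of 382 were higher. The main choice gave 38.7% and 52.2%, and all tested genes 27.6% lower and 30.4% higher. In domains wide in both the share higher went the other way, from 49.6% to 42.1%.

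Leaving out 1 replicate at a time gave PS lengths of 3.96 to 4.52 kb, RS lengths of 4.89 to 7.57 kb, an overlap of 39.4 to 50% in PS and 37.8 to 49.6% in RS, 10 to 11 and 13 to 20 summits, RS promoter peaks of 71.2 to 73.4%, an RS fold enrichment of 24.4 to 27.3, 27 to 55 higher genes in PS-only domains and 15 to 54 lower genes in RS-only domains. The median RPKM in RS ranged from 22.1 to 22.2 for PS domains and from 31.9 to 33.1 for RS domains with either RS replicate of the RNA left out. These and the RPKM medians that follow count every gene of a domain wide in both stages for either stage. Such a gene may start only in the domain of the other stage. For the 517 genes that start in a PS domain, the RS medians were 22.6 and 22.2, and for the 514 of RS domains 33.4 and 32.2. Reciprocal overlap of at least 50% held for 36.2% of domains in each stage. With the deposited nearest gene, median RPKM was 20.2 and 18.5 for PS domains and 16.9 and 22.1 for RS domains (PS and RS samples). With genes of at least 1 RPKM in 1 sample, it was 24.3 and 24.8 for PS domains and 35.7 in RS for RS domains. With domains of same-numbered ChIP replicates compared (replicate block), PS had a median length of 4.03 kb, an overlap of 41.7% and 10 summits.

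Log2 fold changes of 8 uncalled genes changed sign when 1 RNA replicate was left out. Their ranges were -0.21 to 0.14 for *Slc41a3*, -0.26 to 0.045 for *Acrbp*, -0.062 to 0.13 for *Ube2b*, -0.21 to 0.22 for *Rpl36*, -0.14 to 0.15 for *Rpl35*, -0.28 to 0.086 for *Rps2*, -0.17 to 0.15 for *Rfx2* and -0.86 to 0.79 for *Scml2*. The replicate behind the change of sign was RS replicate 2 for *Rps2*, RS replicate 1 for *Rpl36* and *Rpl35*, PS replicate 2 for *Acrbp*, and each of PS replicate 2 and RS replicate 1 for the others. The call of *Rmnd1* was lost with DESeq2. Over all genes, 4448 were higher and 4049 lower in the edgeR test, against 3814 and 3634 with DESeq2, 3482 and 3815 with limma, 4812 and 4207 without the filter, and 4589 and 4134 with a replicate block. Deviations of same-numbered RNA samples had a correlation of 0.22 across 14647 genes, and the dKO preparation allowed PS and RS to be taken from 1 male, so same-numbered samples may share a mouse, but the sources used here do not say which do. The cause of these changes was not tested.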

Other observations

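Several domains held genes that changed in opposite directions. Of 117 RS domains with at least 2 tested genes, 43 had at least 2 called genes all in 1 direction, 13 had genes called in both directions, 43 had 1 called gene and 18 had none. Of 95 PS domains the counts were 25, 4, 49 and 17. Besides the protamine cluster with *Socs1*, the RS domains called both ways included *Iqce* (higher) with *Brat1* (lower), *Rnf41* (higher) with *Nabp2* (lower), *Fndc8* (higher) with *Rad51d* (lower), and *Knop1* (higher) with *Iqck* (lower). The domains of *Iqce* and *Knop1* were also called both ways in PS. These pairs were picked after their values were seen, and strand was not available to separate overlapping transcripts.

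Some wide domains lay at the ends of the assembly. Under 100 kb from the first sequenced base of their chromosome lay 9 PS domains (1.8%), on chromosomes 4 and 11, and 10 RS domains (2%), on chromosomes 3, 4, 11 and 17. Of all merged regions 93 in PS (0.353%) and 85 in RS (0.321%) lay there. The RS domain of rank 7, chr17:3006398-3021174, was 14.776 kb long, 53.5% of its bases were soft-masked repeats, and its fold enrichment was 7.82 and 7.67 in PS and 19.5 and 16.8 in RS. No list of problematic genome regions was used here, and the part of repeats in the length of these domains was not tested. The median share of soft-masked bases over all domains was 12.7% in PS and 15.95% in RS.

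Membership was also counted under other choices. With equal numbers of peaks per sample, 499 of 500 PS and 495 of 500 RS domains were overlapped by the new domains, and with length taken as the bases covered in both replicates 436 and 431 were.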
